A study of Mus musculus with 38 samples.

Results

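The immediate early genes examined here are Fos, Fosb, Jun, Junb, Egr1, Atf3, Ier2, Nr4a1, Nr4a2 and Nr4a3. They were taken by gene name from the array annotation, 10 of the 29411 gene names on the array, and 9 of them (all but Nr4a3) were among the 21856 genes with enough signal to be tested. The tissue was brown adipose tissue of C57BL/6J mice, which were randomised at weaning. LFC mice ate the low fat control diet and HFC mice the diet high in fat and sucrose, while HF5, HF20 and HF75 mice ate the latter and also received the aqueous herbal formulation Kal-1 at 5, 20 or 75 micrograms. LFC and HFC had 10 arrays each (Day 6, Day 10, Day 14, then Weeks 0, 3, 6, 9, 12, 15 and 18), and each dose had 6 arrays, at Weeks 3 to 18, which makes 38 arrays with 1 array per group and time point. The time points of a group therefore served as its replicates, and neither the number of mice behind an array nor the hour of killing was given in the sources used here, which say that tissues were frozen in liquid nitrogen before RNA extraction. The question asked of these genes was whether they vary with diet and dose, or together with how the arrays and samples were handled.

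Immediate early genes are transcribed within minutes of a stimulus without new protein synthesis, through factors that are already present in the cell, such as the serum response factor with its ternary complex partners and CREB. Their products are mostly transcription factors that change a later wave of genes, and their mRNAs are short-lived. In brown fat, noradrenaline acting through cAMP and CREB is a known inducer of several of them, among them the NR4A receptors, while tissue dissection and dissociation are known inducers in many tissues.

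The sequences just before the transcription start are shown for 5 members because the members moved together across the arrays and CREB is a known regulator of several of them. Of the members, 8 matched the RefSeq promoter sequences of assembly GRCm38.p6. The 250 bases before the start are printed 5′ to 3′ on the strand of the gene, and capitals mark TGACG or its reverse complement CGTCA, the core of a cAMP response element, which was searched on both strands.
Fos (chr12:85473640-85473889, forward strand): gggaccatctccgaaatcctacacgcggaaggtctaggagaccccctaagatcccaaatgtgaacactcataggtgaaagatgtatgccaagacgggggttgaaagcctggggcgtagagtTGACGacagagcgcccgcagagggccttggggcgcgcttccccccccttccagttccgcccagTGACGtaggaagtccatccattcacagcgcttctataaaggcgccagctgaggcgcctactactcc
Atf3 (chr1:191183334-191183583, reverse strand): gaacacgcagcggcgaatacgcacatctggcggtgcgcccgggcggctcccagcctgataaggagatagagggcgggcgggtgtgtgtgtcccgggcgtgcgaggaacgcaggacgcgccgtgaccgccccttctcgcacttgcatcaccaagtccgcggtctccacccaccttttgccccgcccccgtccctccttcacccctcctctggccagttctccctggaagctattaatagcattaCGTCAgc
Nr4a1 (chr15:101266596-101266845, forward strand): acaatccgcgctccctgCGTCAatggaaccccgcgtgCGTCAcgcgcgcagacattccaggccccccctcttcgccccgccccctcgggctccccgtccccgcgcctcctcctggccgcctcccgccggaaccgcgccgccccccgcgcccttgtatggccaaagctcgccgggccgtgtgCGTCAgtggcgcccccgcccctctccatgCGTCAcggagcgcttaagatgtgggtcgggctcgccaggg
Nr4a2 (chr2:57124004-57124253, reverse strand): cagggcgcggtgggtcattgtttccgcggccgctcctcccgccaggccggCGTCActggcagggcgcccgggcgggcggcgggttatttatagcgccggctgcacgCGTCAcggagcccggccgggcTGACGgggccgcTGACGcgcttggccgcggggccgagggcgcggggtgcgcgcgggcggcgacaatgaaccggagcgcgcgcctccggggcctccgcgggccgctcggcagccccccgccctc
Jun (chr4:95052223-95052472, reverse strand): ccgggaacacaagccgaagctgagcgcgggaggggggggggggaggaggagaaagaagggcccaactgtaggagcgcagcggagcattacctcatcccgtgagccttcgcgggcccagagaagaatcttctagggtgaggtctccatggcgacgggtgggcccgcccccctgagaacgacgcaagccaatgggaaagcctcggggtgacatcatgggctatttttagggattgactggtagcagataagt
Fos and Atf3 are the members with the largest difference between arrays below, Nr4a2 is the tested member with the smallest, Nr4a1 and Nr4a2 hold 4 copies each, and Jun holds none. Among the 8 member promoters 7 held at least 1 such core, against 17.8% of the 32851 promoters in the same window. Nr4a1, Nr4a2 and Nr4a3 each held 4 copies, which 0.137% of promoters did. The 2 copies of Fos began 129 and 66 bases before the start and the single copy of Atf3 began 7 bases before it. The full palindrome TGACGTCA, in which 2 cores overlap, was in 0 of the 8 windows and in 1.55% of all. TATAAA, searched on the strand of the gene, was in the window of Fos alone, 33 bases before the start, and in 7.59% of all. The CArG box, the site of the serum response factor, was in 0 of the 8 windows and 1.47% of all. A match describes these letters only. Sites beyond the 250 bases, and any site of Egr1 and Ier2, were not searched, so a count of 0 does not show that a gene lacks a site.

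Levels are given as log2 of the processed signal minus log2 of the array's own 75th percentile, so that a level of 0 equals that percentile, and levels of different genes are not compared because their probes differ. The 38 arrays differed in brightness, and they were split at a 75th percentile of 600 intensity units, a boundary chosen with the values in view. On this split 27 arrays were dim, with 75th percentiles from 35.1 to 429.8, and 11 were bright, with none above 1209. Bright arrays were 4 of 10 in LFC (Weeks 0, 3, 9 and 12), 2 of 10 in HFC (Day 10 and Week 3), 0 of 6 in HF5, 4 of 6 in HF20 (Weeks 3, 6, 12 and 15) and 1 of 6 in HF75 (Week 3). The arrays lay on 32 slides and were scanned on 12 days, none of which held more than 1 time point. Weeks 6 and 9 were each scanned on 2 days, and at the other time points scan day and time point cannot be told apart. The array labelled HF75 Week 3 went against its tissue label in most brown adipocyte markers. On it 6 of 8 such markers lay below all of the other 37 arrays, among them the uncoupling protein Ucp1 at -3.07 (3.38 to 8.57 elsewhere) and Cidea at -1.78 (5.58 to 8.77 elsewhere), and Elovl3 was not well above background. Prdm16 at 1.67 (0.93 to 2.93 elsewhere) and Ebf2 at 0.66 (-1.72 to 2.26 elsewhere) lay within the range of the other arrays. Several results are given with and without this array. The calls of the further gene lists and cell type markers, the repeats on other scales and the shares of variation include it.

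Fos, which encodes the partner of Jun proteins in the AP-1 factor, fell into 2 ranges that followed the brightness of the array. On the 27 dim arrays its level was at lowest 3.42, at median 5.25 and at highest 6.46. On the bright arrays other than HF75 Week 3 it was at lowest -3.52, at median -2.63 and at highest 1.47. The ranges did not overlap, and the whole range over 38 arrays was 9.98 on the log2 scale, or 1008-fold. The array labelled HF75 Week 3 was the exception, bright but with a Fos level of 5.42, inside the range of the dim arrays.

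**Figure D1:**
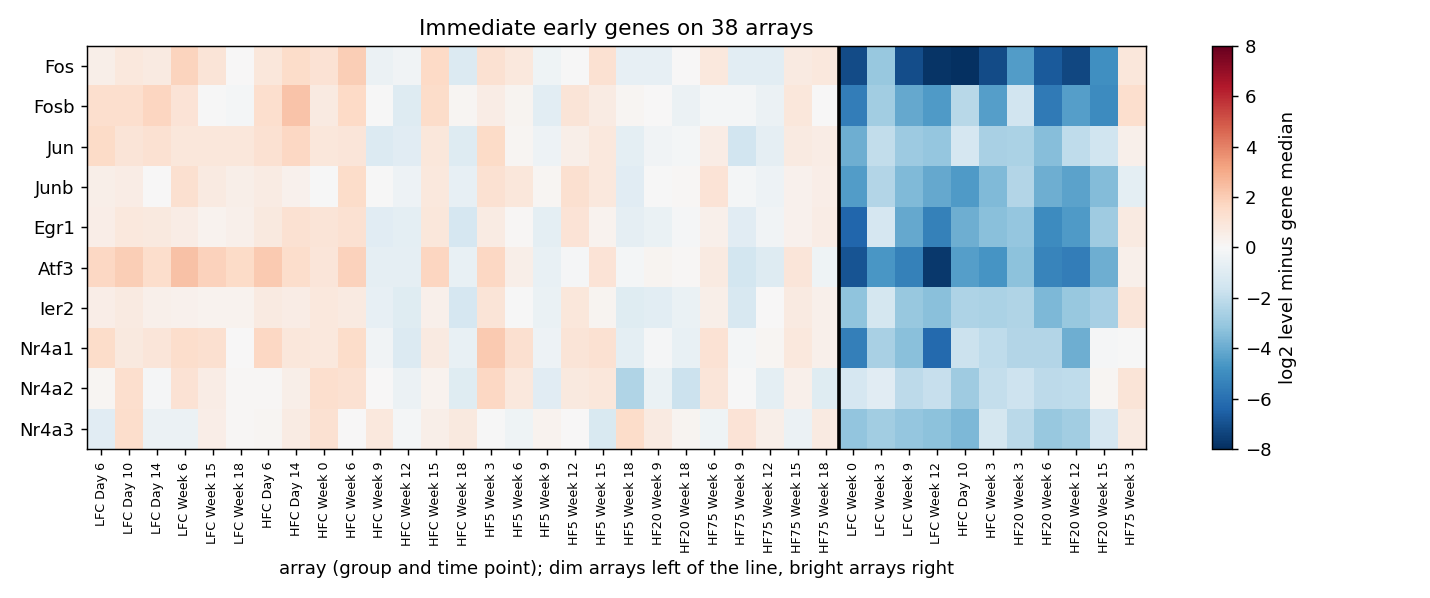
Heat map of the level of each of the 10 members (rows) on each of the 38 arrays (columns), as log2 level minus the median of that gene, with the 27 dim arrays left of the black line and the 11 bright arrays right of it, each ordered by group and time point. The bright arrays are low in nearly every row, except for HF75 Week 3 in the last column.

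The other AP-1 members went the same way. Fosb, a second Fos protein, was at -0.30 to 2.99 on the dim arrays (median 0.92) and at -4.94 to -0.84 on the bright arrays without HF75 Week 3 (median -3.69). Junb was at 6.32 to 8.67 (median 7.72) against 2.71 to 4.88 (median 3.49). Neither gene overlapped between these sets of arrays. Jun was at 2.24 to 5.42 on the dim arrays (median 4.48) and at -0.15 to 2.45 on the bright ones (median 1.21), with the HFC array of Day 10 alone reaching into the dim range. The probe of Junb was saturated on 6 arrays, 5 of them dim, so its level there is a lower bound. On HF75 Week 3 the probes of Egr1 and Nr4a1 were saturated too. A second probe of Junb had a median difference of -4.11 between these bright arrays and the dim ones, against -4.23 for the probe used.

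Egr1, a zinc finger factor induced by growth signals, ran from 4.10 to 6.65 on the dim arrays (median 5.86) and from -0.88 to 4.11 on the bright arrays without HF75 Week 3 (median 1.46). The LFC array of Week 3, at 4.11, lay just above the lowest dim array, HFC of Week 18. Atf3, a stress-induced factor of the ATF and CREB family, was at 3.61 to 7.40 (median 6.05) against -2.61 to 1.81 (median 0.07), with no overlap. Ier2, a small nuclear protein, was at 3.43 to 5.82 (median 5.11) against 1.16 to 3.37 (median 1.94), also with no overlap. All 3 probes of Ier2 had lower medians on the bright arrays, with differences of -3.17 for the probe used and -3.29 and -2.60 for the others.

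The NR4A genes encode orphan nuclear receptors. Nr4a1 was at 5.24 to 8.45 on the dim arrays (median 7.19) and at 0.12 to 6.27 on the bright arrays without HF75 Week 3 (median 3.87). The HF20 array of Week 15, at 6.27, was the only one of the 10 within the dim range. Nr4a2 overlapped most, with -0.25 to 3.82 (median 2.35) against -0.68 to 2.32 (median 0.29), and only 1 of these 10 bright arrays was below all dim ones. Nr4a3 was well above background on 4 arrays (LFC Day 10, HFC Day 14, HFC Week 0 and HF75 Week 3) and was not tested. Its level is therefore a bound on most arrays and carries no order there.

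Without HF75 Week 3, 5 of the 9 tested members had all 10 bright arrays below all 27 dim arrays, a pattern that 5.75% of the tested genes showed. With that array included it was 0 of 9 members, against 2.27% of genes. In a model with group and time point, fitted by limma on all 38 arrays, 9 of 9 members were lower on the bright arrays, where 36% of the tested genes were called lower and 23.5% higher. Fos changed by -6.97 (SE 0.67, adjusted p 1.51e-08), which was the third lowest of 21856 changes. Atf3 changed by -6.10 (SE 0.57, adjusted p 1.04e-08) and was the 8th lowest. Fosb (-4.34), Egr1 (-4.32) and Junb (-4.25) followed, then Nr4a1 (-3.56), Ier2 (-2.91) and Jun (-2.86). Nr4a2 changed by -2.25 (SE 0.42, adjusted p 6.16e-05), and 9.73% of the genes changed further down. The median of the members was -4.25 and that of all tested genes -0.31, and without HF75 Week 3 they were -4.45 and -0.33.

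**Figure D2:**
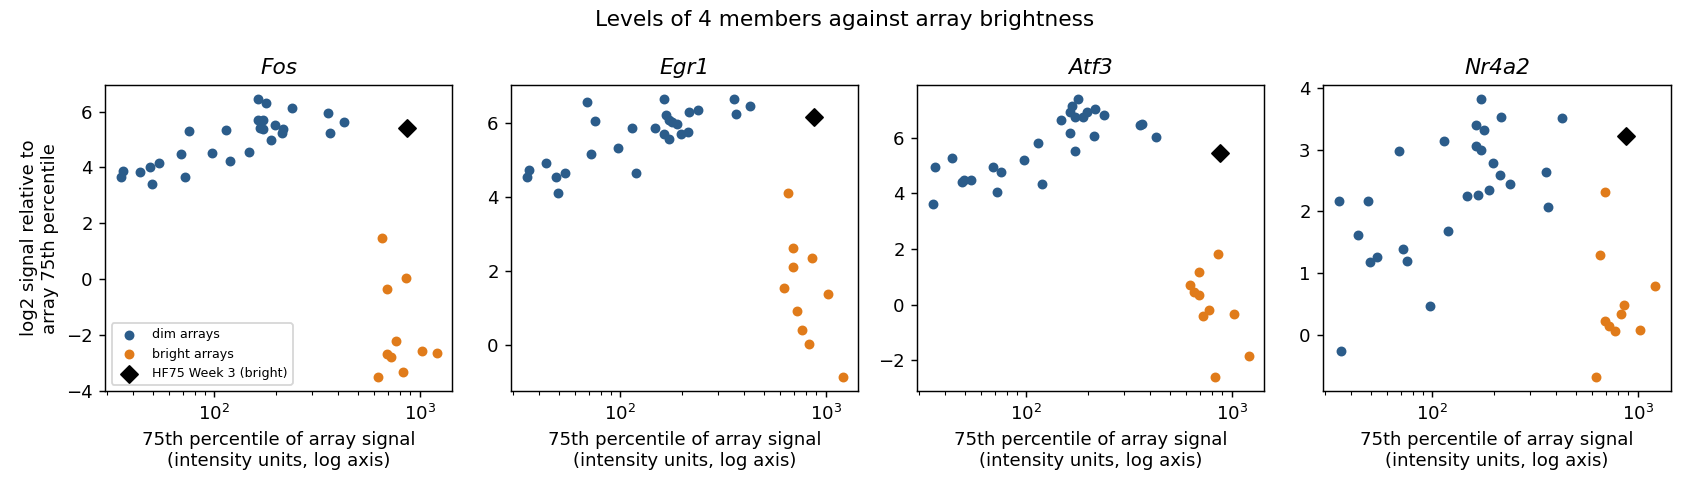
Level of Fos, Egr1, Atf3 and Nr4a2 (log2 signal relative to the array's 75th percentile) against that 75th percentile in intensity units on a log axis, 1 point per array, dim arrays in blue, bright arrays in orange and HF75 Week 3 as a black diamond. Levels of Fos and Atf3 drop without overlap between the dim and bright arrays, and the diamond stays at the level of the dim arrays.

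Scaling by the 75th percentile lowers every level on a bright array, so the comparison was repeated on other scales. The median of all tested genes moved from -0.31 with this scaling to 0.06 under quantile normalization, -0.76 after normexp background correction and 2.07 in the unscaled signal. All 9 members remained called lower under quantile normalization (median -3.86) and after normexp correction (median -2.56). In the unscaled signal, where most genes were brighter on the bright arrays and 1.4% of genes were called lower, 6 of 9 members were still called lower. Fos changed there by -4.59 (adjusted p 1.10e-06) and Atf3 by -3.72 (adjusted p 9.26e-06). Jun (-0.48, adjusted p 0.448) and Ier2 (-0.53, adjusted p 0.361) did not pass, and Nr4a2 turned to 0.13 (adjusted p 0.830). The unscaled Fos signal had a median of 6012 intensity units on the dim arrays and 167 on the bright arrays without HF75 Week 3, where it was 37266.

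The difference was also present within scan days and slides. On 6 scan days that held arrays of both classes, each of the 9 tested members had a lower mean on the bright than on the dim arrays on 6 of 6 days. For Fos these differences ran from -8.89 at Day 10 to -4.64 at Week 3, and at Week 3 it was -6.09 without the HF75 array. On 3 slides that held 1 array of each class, all 9 tested members were lower on the bright array of each slide, with differences of -8.89 to -5.65 for Fos and -4.20 to -0.74 for Nr4a2. Group was not held constant in these pairs. Their arrays are among those of the 6 scan days, so slides and scan days are not independent. At Day 10 the slide and the scan day hold the same arrays. The bright array of Day 10, that of HFC, had a 75th percentile of 625.4. It held 1079 of the 2492 spots flagged as outliers over all arrays. The bright array of Week 9 was scanned on another day than the 4 dim ones, so no value can be given within a day there. How many of all tested genes were lower on all of these days or slides was not counted. In the comparison of all bright with all dim arrays 36% of genes were called lower. The arrays here are part of that comparison, so these counts are not separate evidence.

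Further genes of the same response moved with the members. Of 20 tested further transcription factors, among them AP-1, EGR, ATF and KLF factors, 17 were lower on the bright arrays and 1 was higher (median -2.55). Klf4 changed by -3.14, Klf2 by -2.94 and Mafk by -2.86, while Cebpb, a factor of adipocyte differentiation, changed by 1.32. Of 28 other early response genes 24 were lower and 0 higher (median -2.96), with Socs3, an inhibitor of cytokine signalling, at -6.82, Arc at -4.08 and the matricellular gene Cyr61 at -3.83. Of 21 upstream factors and kinases 12 were lower and 3 higher (median -0.98). Elk3 (-2.19) and Srf (-1.81), which bind the serum response element, were lower, and the catalytic subunit of protein kinase A, Prkaca, was higher (2.17). Of 12 cAMP responders of brown fat 5 were lower and 4 higher, beside 36% and 23.5% of all tested genes. The beta-3 adrenergic receptor Adrb3 changed by 4.16 and the cAMP phosphodiesterases Pde4b and Pde4d by -3.83 and 2.59. Of 10 glucocorticoid responders 6 were lower and 1 higher, with Sgk1 at -2.31 and Pdk4 at 2.43. Of 7 heat shock genes 6 were lower and 1 higher, with Hspa1a at -5.52 and Hspb1 at -3.21.

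Markers of some other cell types moved with the brightness as well. Beside these counts, 36% of all tested genes were lower on the bright arrays and 23.5% higher. The counts of lymphocyte, skeletal muscle and brown adipocyte markers were near or below those shares. All 6 tested endothelial markers were lower on the bright arrays (median -2.54). Their summed level was 6.32 to 7.92 on the dim arrays, 4.14 to 5.49 on the bright arrays without HF75 Week 3, and 7.17 on HF75 Week 3. All 5 tested erythroid markers were lower (median -2.95). Their summed level was 8.21 to 11.9 against 6.84 to 7.78, and 6.84 on HF75 Week 3. Of 8 macrophage markers 4 were higher and 0 lower, with overlapping sums of 2.11 to 4.40 and 2.36 to 4.53, and 4.67 on HF75 Week 3, above both ranges. Of 8 lymphocyte markers 3 were lower, and of 8 skeletal muscle markers none passed in either direction, at sums of 1.73 to 9.96 and -1.14 to 8.62. Of 8 brown adipocyte markers 2 were higher and 1 lower, with sums of 7.04 to 10.4 and 8.09 to 8.87, and 2.73 on HF75 Week 3. None of these 6 lists had a marker that was below background on all dim arrays or on all 10 bright arrays. In bulk tissue fewer cells of a type and less RNA per cell cannot be told apart. The part of these cell types, of RNA quality and of labelling in the members' levels was not tested.

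Among the 27 dim arrays the members still varied. Fos had a mean of 5.87 at Week 6 (4 arrays, 5.35 to 6.46) and 5.65 at Week 15 (4 arrays, 5.25 to 6.13), against 3.91 at Week 9 (4 arrays, 3.66 to 4.16), 4.13 at Week 12 (3 arrays, 3.67 to 4.47) and 4.33 at Week 18 (5 arrays, 3.42 to 5.32). The arrays of Week 9 lay below all those of Weeks 6 and 15, across HFC and all 3 doses. Nr4a1 had means of 7.69 and 7.38 at Weeks 6 and 15 against 6.11, 6.37 and 6.05 at Weeks 9, 12 and 18. Nr4a2 had means of 3.21 and 2.72 against 1.80, 2.02 and 0.97. The dim arrays of Weeks 9, 12 and 18 had 75th percentiles of 35.1 to 54.0, 68.5 to 119.7 and 35.8 to 147.7, against 113.6 to 177.8 at Week 6 and 162.8 to 238.9 at Week 15, so that Weeks 12 and 18 overlapped with Week 6 and Week 9 did not.

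Across the 27 dim arrays the level of all 9 tested members was higher where the array was brighter. Fos correlated with the log2 of the 75th percentile at Pearson's r = 0.80 (permutation p 1e-05, the smallest that 100000 permutations can give, adjusted over 9 members 1.8e-05) and Spearman's rho = 0.75 (permutation p 4e-05, adjusted 0.000112). The lowest value was that of Junb, at r = 0.44 (permutation p 0.0227, adjusted 0.0227) and rho = 0.39 (permutation p 0.0445, adjusted 0.0445). Without the 2 arrays farthest from the median brightness r was 0.76 for Fos and 0.29 for Junb, so the relation of Junb rests on those arrays. These p-values treat the arrays as independent, while arrays of a time point mostly shared a scan day. The median r was 0.74 over the members and -0.13 over all tested genes. Within time points, after their means were subtracted on 24 arrays of 7 time points, the median r was 0.34 for the members (-0.18 to 0.51) and -0.06 for all genes. The relation thus ran in the opposite direction to that between the dim and bright arrays.

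The members varied together on the dim arrays and less clearly on the bright ones. No correlation was computed across both classes since the arrays fell into 2 clusters. On the dim arrays all 36 pairs of the 9 tested members correlated positively, with Pearson's r from 0.42 to 0.93 (median 0.75) and Spearman's rho from 0.41 to 0.89. All 36 pairs passed a permutation test for both measures after adjustment over the 36 pairs. The closest pair was Egr1 and Ier2 (r = 0.93, rho = 0.89, permutation p 1e-05 for both, adjusted 2e-05 and 3.27e-05), and r was 0.91 without the 2 arrays of most extreme Egr1 level. The weakest was Fosb and Junb (r = 0.42, permutation p 0.0278, adjusted 0.0278, rho = 0.41, permutation p 0.0348, adjusted 0.0348), with r = 0.56 without the 2 arrays of most extreme Fosb level. Over all pairs of tested genes the median r on these arrays was 0.01. These p-values treat the arrays as independent, while arrays of a time point shared a scan day or, at Weeks 6 and 9, 1 of 2 scan days. After the time point means were subtracted, all 36 pairs stayed positive on 24 arrays, with r from 0.29 to 0.89 and a median of 0.55, where the median over all pairs of genes was 0.01. No scan day held 6 dim arrays, so no r was computed within one.

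On the 11 bright arrays the pairs correlated at a median r of 0.81, and 29 of 36 passed by Pearson's r and 12 by Spearman's rho. Much of this rested on 1 array. Without HF75 Week 3 the median was 0.57, 35 of 36 pairs were positive, and 3 pairs passed by Pearson's r and 4 by Spearman's rho. Atf3 and Nr4a1 (r = 0.90), Fos and Junb (0.89) and Egr1 and Ier2 (0.89) were closest, and Fosb and Nr4a2 were at -0.25.

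**Figure D3:**
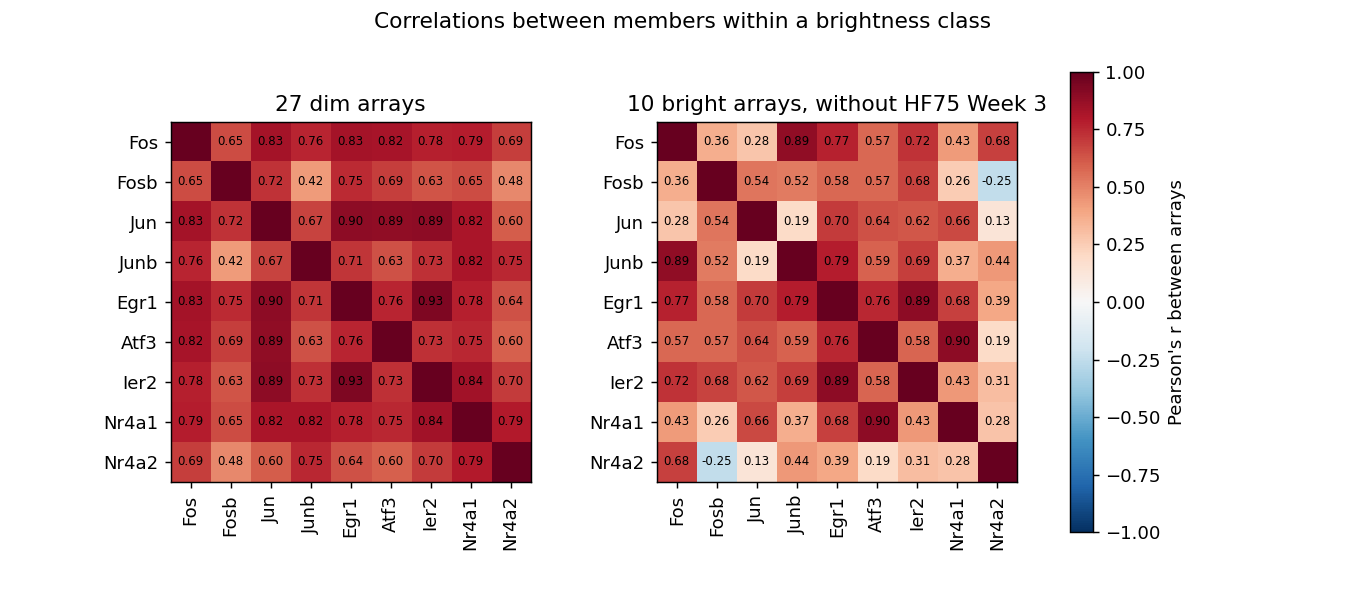
Pearson's r between the levels of each pair of the 9 tested members, over the 27 dim arrays on the left and over the 10 bright arrays without HF75 Week 3 on the right, with the value printed in each cell. All pairs are positive on the dim arrays, from 0.42 to 0.93, and 35 of 36 are on the bright ones.

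The genes whose pattern was most like that of the members, by r over 38 arrays with the mean of the standardised members after the class means were subtracted, were Cyr61 (0.93), Btg2 (0.92), Zfp36 (0.91), Fosl2 (0.90) and Nfkbiz (0.90). On the dim arrays alone their r was 0.92, 0.93, 0.94, 0.85 and 0.85. Without HF75 Week 3 it was 0.91, 0.88, 0.85, 0.84 and 0.83. All of these are in the lists of further AP-1 factors or early response genes. Zfp36 binds and destabilises mRNAs, and Btg2 is an antiproliferative gene.

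The first comparison of diets asked whether the high fat diet changed the members over the whole course. Fos was at lowest -3.34, at median 4.77 and at highest 6.30 on the 10 LFC arrays, and at lowest -3.52, at median 4.84 and at highest 6.46 on the 10 HFC arrays, so the groups overlapped over nearly their whole range. With the time point in the model 0 of 9 members passed, and 0% of all tested genes did. At an unadjusted p under 0.05 there were 0 members and 1525 genes. The median of the members was 0.86, and single changes ran from 0.01 (SE 0.56) for Nr4a2 to 1.16 for Fosb (SE 0.80) and Nr4a1 (SE 0.78), with adjusted p between 0.646 and 0.999. At the 4 time points where one array was bright and the other dim, the difference of Fos was -8.89 at Day 10, where HFC was bright, and 8.30, 6.61 and 7.58 at Weeks 0, 9 and 12, where LFC was bright. At the other 6 time points it was 0.44, 0.71, -4.16, 0.15, 0.60 and -1.12, in order of time. Over these 6 time points, chosen after the arrays were seen, the median of the members was -0.31 and 0 passed, and with the brightness class as a term on all 20 arrays it was -0.25 and 0 passed. In weeks 3 to 18 alone 0 of 9 members passed, against 0.00915% of genes, and the median was 0.88, which became -0.48 with brightness class as a model term.

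**Figure D4:**
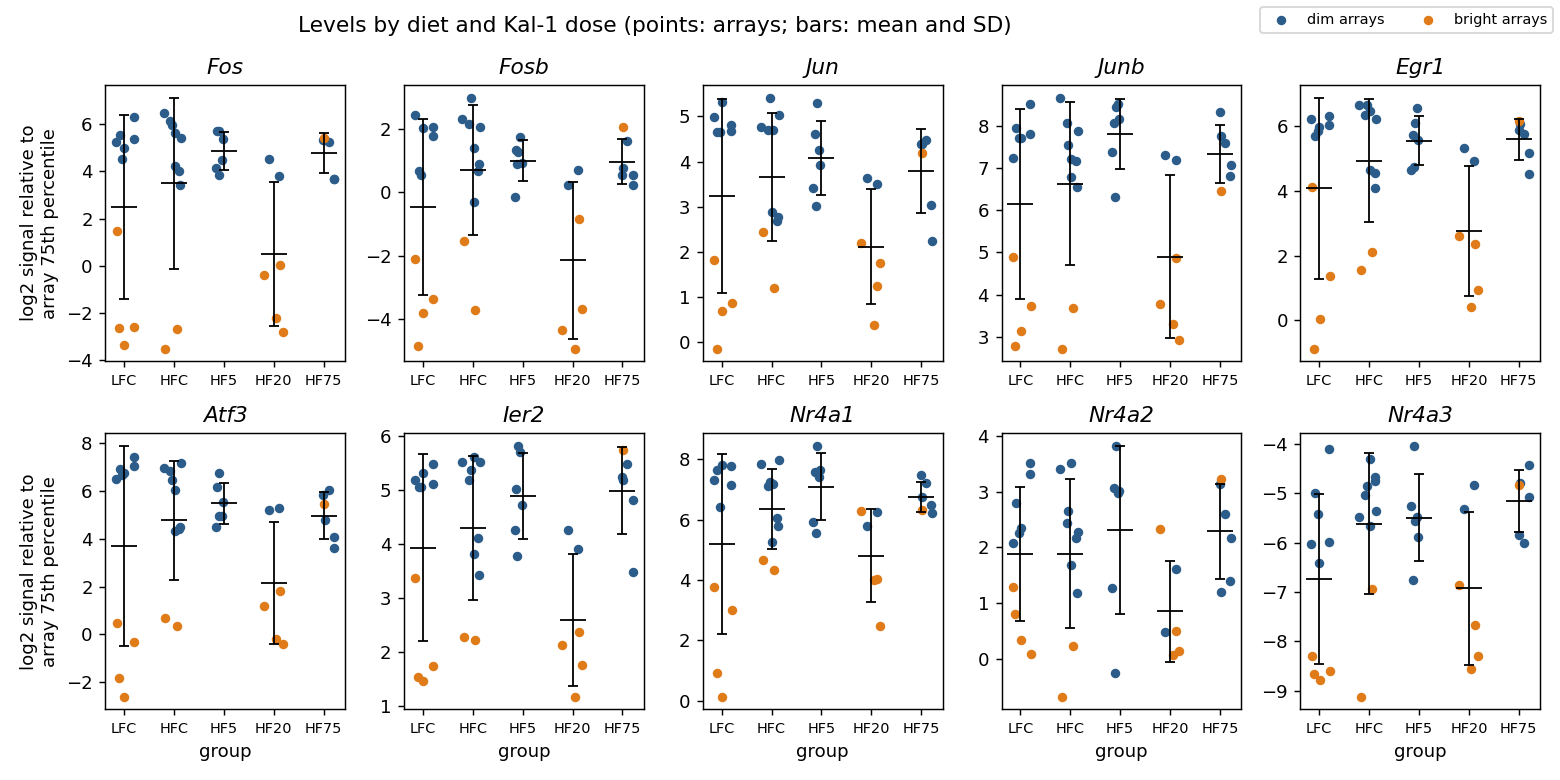
Levels of the 10 members (log2 signal relative to the array's 75th percentile) in the 5 groups, 1 point per array, dim arrays in blue and bright arrays in orange, with the mean and SD of each group in black (n = 10 for LFC and HFC, n = 6 for each dose). Within LFC and HFC the points of each of the 9 tested members split by colour, and within HF20 they do for all of these but Nr4a1 and Nr4a2. Nr4a3 was well above background on 4 arrays only, so a split in its panel cannot be read.

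For HF5 against HFC, Fos was at lowest 3.86, at median 4.92 and at highest 5.70 on the 6 HF5 arrays, all of them dim. The median change of the members was 0.92 and 0 of 9 passed, where 0% of genes did. The difference of Fos was 8.39 at Week 3, where the HFC array was bright, and -1.09, 0.14, 0.23, -0.42 and 0.44 at the other 5 time points. Over those 5 the members had a median change of 0.18, and with brightness class as a model term it was 0.20.

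For HF20 against HFC, Fos on the HF20 arrays was 0.05, -2.23, 3.82, -2.79, -0.37 and 4.53 at Weeks 3, 6, 9, 12, 15 and 18. The dim arrays of Weeks 9 and 18 were high and the 4 bright ones low. All 9 members had lower estimates in HF20 with a median of -1.93, and 5 of 9 had an unadjusted p under 0.05, which 33.1% of genes did, but 0 of 9 passed after adjustment (adjusted p 0.125 to 0.275), where 0% of genes did. Fos changed by -3.09 (SE 1.47, adjusted p 0.146) and Fosb by -2.49 (SE 1.06, adjusted p 0.125). At Weeks 6, 12 and 15, where HF20 was bright and HFC dim, Fos differed by -8.68, -7.03 and -6.50, and at Weeks 3, 9 and 18, where both arrays were of 1 class, by 2.73, -0.20 and 1.12. Over these 3 time points the median of the members was 0.60, and with brightness class as a model term it was 0.14. Without Week 3, where both were bright, Fosb passed (-3.55, SE 1.06, adjusted p 0.0428), where 16.4% of genes did.

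For HF75 against HFC, Fos was 5.42 on the array of Week 3 and 3.66 to 5.35 on the other 5 HF75 arrays, which were dim. The median change was 0.62 and 0 of 9 members passed, where 0% of genes did. The difference of Fos was 8.10 at Week 3, where both arrays were bright, and -1.11, -0.36, -0.57, -0.88 and 1.90 at Weeks 6 to 18. Without the HF75 array of Week 3 the median of the members was 0.51 and 0 passed, in a fit that keeps the bright HFC array of that week. With all arrays of Week 3 left out the median was 0.06, 5 members had higher and 4 lower estimates, and 0 passed. The dose groups share the HFC arrays, so the 3 comparisons are not independent.

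**Figure D5:**
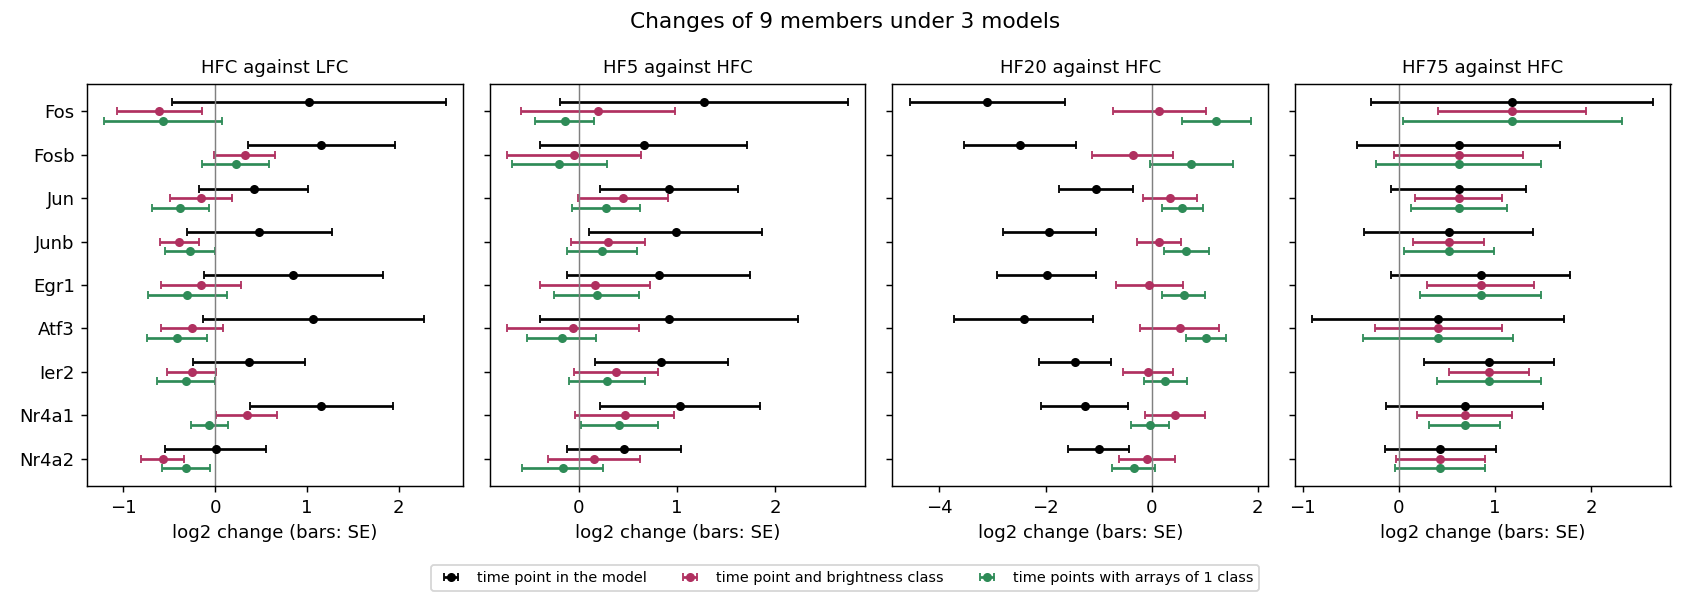
Log2 change of each of the 9 tested members, with its SE as a bar, for HFC against LFC and for each dose against HFC, from the model with the time point (black), with the brightness class added (red), and over the time points where both arrays were of 1 class (green). The HF20 estimates lie below 0 in black (median -1.93) and near or above it in red and green (medians 0.14 and 0.60).

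Differences among the 3 doses, tested with a moderated F test, were called for 2 of 9 members, Ier2 (adjusted p 0.0382) and Junb (adjusted p 0.0497), where 13.4% of genes were called. Junb was at 6.32 to 8.51 in HF5 (median 8.12), at 2.93 to 7.30 in HF20 (median 4.33) and at 6.47 to 8.34 in HF75 (median 7.33). Ier2 was at 3.77 to 5.82 (median 4.87), 1.16 to 4.25 (median 2.24) and 3.47 to 5.74 (median 5.20). In both genes the 4 bright HF20 arrays were below all HF5 and HF75 arrays and the 2 dim ones were within their range. The other 7 members had adjusted p from 0.0520 to 0.116. With brightness class as a model term 0 of 9 members passed, and 0% of genes did. The count was 0 of 9 as well when the Week 3 array of HF75 was left out. A trend over the order of doses from HFC to HF75 was called for 0 of 9 members, where 0% of genes were called, with a median of -0.02 per step and 8 of 9 members lower. With brightness class as a model term the median was 0.19 with 9 of 9 higher, and with the Week 3 array of HF75 left out it was -0.17 with 9 of 9 lower, and 0 passed in both. The fit with brightness class keeps that array, and no fit with both changes was made.

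The time point of weeks 3 to 18 was called for 0 of 9 members, where 5.27% of genes were called. With brightness class as a model term 3 of 9 passed, Nr4a1 (adjusted p 0.0261), Atf3 (0.0438) and Nr4a2 (0.0471), where 7.6% of genes did. A trend over days on the LFC and HFC arrays, with weeks counted on from Day 14 as an assumption, was called for 0 of 9 members and 1.63% of genes, and a difference of that trend between the diets for 0 of 9 and 0%. On the 30 arrays of weeks 3 to 18, the group took a median share of 30.4% of the variation of the members (20.0% for Nr4a2 to 39.3% for Ier2) and the time point 17.0% (8.43% for Fosb to 27.9% for Nr4a2). Over all tested genes these medians were 21.1% and 24.7%. Their degrees of freedom alone would give 13.8% for the group, 17.2% for the time point and 3.45% for the brightness class. The brightness class alone, which overlaps with both, took a median of 62.0% of the variation of the members (23.8% for Nr4a2 to 80.0% for Junb) and 27.5% of that of all genes.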

How the data were processed

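The labels describe Cy3-labelled RNA on 1-colour Agilent arrays, 1 per group and time point. The deposited scanner files hold intensity values, which the authors made with Feature Extraction (9.1 per the labels, 10.5.1.1 per the file headers) as background-corrected signals not scaled between arrays. A deposited table of the authors' own changes against LFC was not used, and no sample column was left unmapped (0). Each array's 75th percentile was subtracted on the log2 scale, spots flagged as outliers were left out, 1 probe per gene, that of highest mean, was used, and a gene was tested if 6 or more of the 38 arrays had it well above background. Comparisons were fitted with limma 3.58.1 in R 4.3.3 as two-sided tests. Adjusted p-values are those of Benjamini and Hochberg across the 21856 genes, called below 0.05. The diets over the whole course were compared on 20 arrays and the doses on the 30 of weeks 3 to 18, blocked by time point. Correlations and their 100000 permutations were computed in Python 3.11.15 with numpy and scipy. The steps were tested on simulated data. For the fits these held independent noise without brightness classes and covered only some of the comparisons. The members, the lists and the comparison of bright with dim arrays were chosen with earlier results of these data known. All members are named, with the list members of smallest p and the 5 genes most like the members. The number of arrays limits precision. Replicates are time points. Where time point was a block, p-values rest on how far the group differences varied between time points. Alternatives were quantile normalization, normexp correction (offset 50), other filters, the mean of all probes, the brightness class, slide blocks, no block and leaving out each time point.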

Additional observations from a re-analysis of the deposited data

Results flagged for a closer look

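2 results differed between groups by a test of the difference itself. Differences among the doses were called for Ier2 (adjusted p 0.0382) and Junb (adjusted p 0.0497) by limma's moderated F test, and neither was called once brightness class was a model term (adjusted p 0.559 and 0.940) or without the HF75 array of Week 3. By Dixon's test, which sets the single highest or lowest array of a group against its neighbour, 0 of 50 combinations of member and group had an outlying array. This test does not see several low arrays in 1 group, such as the bright arrays of LFC, HFC and HF20.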

How the results depend on the processing

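Calls among the 9 tested members depended on the processing in 3 comparisons. For the differences among doses, with 2 members called, the count was 1 under quantile normalization, with the mean of all probes of a gene and with no replicate block (unpaired by time point), 0 with normexp correction, no filter on dim probes, the brightness class or the unscaled signal, 5 with genes well above background on every array and 8 with the slide as a random block. It was 0 without the HF75 array of Week 3 and ran from 0 to 7 when single time points were left out (0 without Weeks 3, 6, 12 or 15, 6 without Week 9 and 7 without Week 18). For the time point of weeks 3 to 18, with 0 called, it was 2 with normexp correction, 3 with the brightness class and 8 in the unscaled signal. For HF20 against HFC it was 0 to 1 when single time points were left out, and 1 only without Week 3. The cause was not tested. In the main fit 13.4% of all tested genes were called for the doses and 5.27% for the time point. The shares of all genes under most other settings are not given here, so these counts are not results about the members alone. The block left the count at 0 in the other comparisons.

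The median trend over days of the members was -0.01 log2 per week and -0.0894 in the unscaled signal, and that of the product of diet and day ran from -0.0636 to 0.153 when single time points were left out. The median correlation on the dim arrays was 0.75 and 0.89 with normexp correction. The median share of the group was 30.4%, and 25.3% to 38.4% without single time points. Of 1260 member changes recomputed, 185 had the other sign, all of changes that were not called. The count of 9 members lower on bright arrays was 6 in the unscaled signal. Saturation limits Junb on 6 arrays and Egr1 and Nr4a1 on HF75 Week 3, and low signal limits Nr4a3 on 34.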

Other observations

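The time point of weeks 3 to 18 was called for 2 of 28 further early response genes, beside 5.27% of all tested genes. These were Tiparp, a target of the aryl hydrocarbon receptor (adjusted p 0.0162), and Errfi1, an inhibitor of EGF receptor signalling (adjusted p 0.0396), both by limma. On the bright arrays Errfi1 changed by -1.21 (adjusted p 0.00612) and Tiparp by 0.27 (adjusted p 0.359). Among 12 cAMP responders the time point was called for Nfil3 alone, a clock-linked repressor (adjusted p 0.0162), and among 5 erythroid markers for 4, with Alas2, the first enzyme of heme synthesis in red cells, at an adjusted p of 0.0210.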
